A study of Cricetiscus sungorus with 41 samples.

Results

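Djungarian hamsters (Phodopus sungorus, entered in the labels as Cricetiscus sungorus) spend part of many winter days in torpor. The blood transcriptome of 5 hamsters that had never entered torpor in their lives was set against that of 18 hamsters that entered torpor on other days but were normothermic when sampled. The members are samples: the 5 libraries labelled Control, which carry no time point, and the 18 libraries labelled NT, 23 of the 41 in the series. Of the NT animals, 6 were sampled at ZT01 (zeitgeber time, hours after lights on), and 4 each at ZT04, ZT07 and ZT16, and the comparison is Control minus the mean of these 4 groups. The other 18 libraries are from animals that were hypothermic (HT) at the same time points, and they are given beside the comparison without entering it.

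All animals are wild type. The NT and HT hamsters were acclimated to short photoperiod, had each shown daily torpor (body temperature under 32 °C for at least 30 min), and were killed with carbon dioxide at 32 ± 4 weeks of age. Of the NT animals 13 are labelled male and 5 female, while the sex of the Control animals is given as not provided. Their photoperiod, age and sampling time are not given in the sources used here either. A difference between Control and NT can therefore not be told apart from one of sex, age, photoperiod, time of day or handling, and each Control value stands for 1 animal of unknown history beyond the absence of torpor. Each library is the blood pellet of 1 hamster, so that p-values measure the spread between animals.

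Daily torpor is a controlled fall of metabolic rate and body temperature that small rodents use in winter to save energy. Blood pellets hold mainly red cells, whose youngest members, the reticulocytes, still carry haemoglobin messenger RNA, together with white cells and platelets. Enzymes of amino acid breakdown, gluconeogenesis and ketone or fatty acid metabolism such as CPS1, PCK1 and MAT1A are textbook genes of the liver. Mature red cells, which lack mitochondria, use glycolysis.

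Haemoglobin RNA filled most of every library. Haemoglobin genes took 87.9, 84.7, 88.6, 86.7 and 73.7% of the counts in Control animals 1 to 5, against 85.7 to 93.8% (median 89.5%) in NT animals. The Control mean was lower by 5.16 percentage points (2-sided exact permutation test over 33649 assignments, p = 0.00276, adjusted over 3 measures 0.00829), and by 2.51 points without Control replicate 5 (exact p = 0.0283). Control libraries held 6304978 to 14562786 counts outside haemoglobin and NT libraries 3291472 to 9256883 (exact p = 0.00600, and 0.0504 without Control replicate 5). The number of gene symbols with a count was 12113 to 13027 in Control and 11305 to 12539 in NT libraries (exact p = 0.0456), which did not hold without Control replicate 2, 4 or 5 (exact p = 0.0879, 0.0626 and 0.202). In the 41 libraries UTY, a gene of the Y chromosome, went against 2 sex labels, both in HT: ZT07 replicate 2, labelled female, had 52 counts and ZT07 replicate 1, labelled male, had 8. Total counts were 55405503 to 63925942 in Control and 52668511 to 70007351 in NT libraries. Fewer red cells of a given age and less RNA per cell cannot be told apart in such samples. Control replicate 5 and the NT libraries with the fewest counts outside haemoglobin (ZT04 replicate 2 and ZT01 replicate 4) stood apart, and counts of called genes are also given without these 3.

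Blood of never-torpor animals differed from NT blood almost entirely by genes that were lower. Of 11369 genes that passed the filter on low counts, 217 were lower in Control and 10 higher (edgeR quasi-likelihood test, Benjamini-Hochberg adjusted p under 0.05), which is 1.91% and 0.0880% of the genes tested. Levels below are in CPM, the count scaled to the size of its library. Without the 3 libraries that stood apart, 202 genes were lower and 7 higher. The median log2 fold change of all tested genes was 0.02, and at an unadjusted p under 0.05 there were 721 lower and 341 higher genes. For 180 of the 217 lower genes every Control animal lay below every NT animal, against 182 (1.60%) of all tested genes. For 2 of the 10 higher genes every Control animal lay above every NT animal, against 3 (0.0264%) of all tested genes. The same libraries chose the called genes, so these gaps describe them and are no separate test. The falls were large: 110 genes were more than 8-fold lower, 96 were 2- to 8-fold lower and 11 less than 2-fold.

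**Figure D1:**
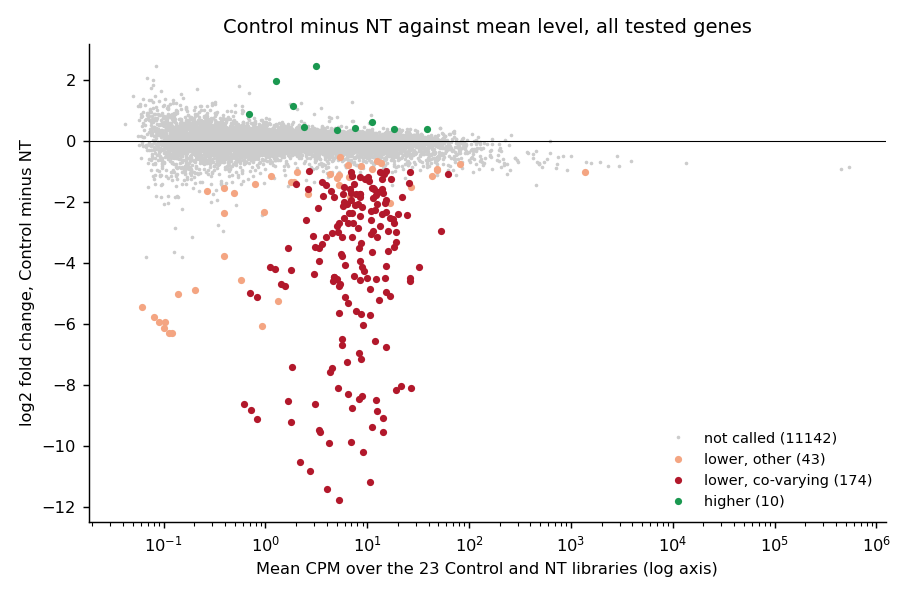
Log2 fold change, Control minus NT, against the mean level in CPM over the 23 libraries (log axis) for the 11369 tested genes, each point a gene. The 217 lower genes reach down to -11.79, while the 10 higher genes lie between 0.36 and 2.47.

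Among the genes with the deepest falls were enzymes that were counted in every NT and HT library and were at or close to 0 in Control. Each symbol is that of the closest human protein, and functions named here and below are those of that protein. The organism the transcripts came from was not tested. Library sizes for CPM were scaled by the trimmed mean of M values (TMM) over all 41 libraries and levels were not corrected for gene length, so that they compare libraries and not genes. MAT1A, which makes S-adenosylmethionine in liver, had no count in any Control library, against 1.97 to 21.3 CPM (median 5.26) in NT libraries and 1.61 to 7.78 CPM in HT libraries. With 3 counts over the 5 Control libraries taken as the floor, MAT1A was at least 1205-fold lower in Control. HTRA1, a secreted serine protease, likewise had no count in Control, against 1.40 to 15.4 CPM (median 4.77) in NT libraries, and was at least 910-fold lower. No Control animal overlapped any NT animal for either gene. DHDH, a dihydrodiol dehydrogenase (at least 617-fold lower), and PCK1, the cytosolic enzyme that commits carbon to gluconeogenesis (at least 498-fold lower), were also at 0 in all 5 Control libraries. In all, 14 of the lower genes had no count in any Control library, and 7 more had 1 to 3 counts over the 5. The 14 passed the filter on low counts through NT libraries alone. MAT1A and HTRA1 alone combined no count in Control with at least 1 CPM in every NT library, and no tested gene showed the opposite pattern.

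CPS1, the mitochondrial entry enzyme of the urea cycle, had 0, 0.00904, 0.0699, 0.0123 and 0.0290 CPM in Control animals, against 5.46 to 52.7 CPM (median 17.5) in NT animals. Its log2 fold change was -9.54 ± 0.78 (SE, adjusted p = 3.05e-08, edgeR). The 5 Control values came from 12 counts in all. HGD, which opens the ring of homogentisate in tyrosine breakdown, had 4 counts, all in Control replicate 3, against 3.18 to 31.8 CPM in NT animals (-10.21 ± 0.93). HAO1, the peroxisomal glycolate oxidase of liver, had 0.0266, 0.217, 0, 0.123 and 0.102 CPM in Control, against 7.62 to 86.6 CPM (median 25.5) in NT (-8.02 ± 0.74). ATP7B, the copper-exporting ATPase mutated in Wilson disease, had 0 to 0.221 CPM in Control, against 6.81 to 67.2 CPM in NT (-8.17 ± 0.72). For each of these genes every Control animal lay below every NT animal.

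Other genes kept a measurable level in Control. ACO1, the cytosolic aconitase that doubles as iron regulatory protein 1, had 0.598, 1.92, 1.99, 0.910 and 1.45 CPM in Control, against 10.5 to 84.4 CPM (median 32.4) in NT (log2 fold change -4.58 ± 0.51). SSBP1, which coats single-stranded mitochondrial DNA, had 1.34, 2.40, 2.29, 2.34 and 2.92 CPM, against 12.7 to 103 CPM in NT (-4.14 ± 0.48). Both genes act in metabolism or DNA upkeep of most cells, and both stayed above 0 in every Control animal. AFG3L2, a protease subunit of the mitochondrial inner membrane, had 9.10, 8.11, 8.51, 8.90 and 7.61 CPM, against 22.4 to 161 CPM in NT (-2.94 ± 0.41). SDHA, the flavoprotein of respiratory complex II, had 6.99, 7.92, 8.07, 6.68 and 6.95 CPM, against 12.5 to 63.3 CPM (median 23.4) in NT (-1.81 ± 0.31). KARS, the lysyl-tRNA synthetase, had 6.28, 9.64, 9.89, 8.53 and 7.26 CPM, against 11.1 to 41.3 CPM in NT (-1.24 ± 0.24). The groups did not overlap for any of these genes, and the NT animals spread far more widely than the Control animals.

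**Figure D2:**
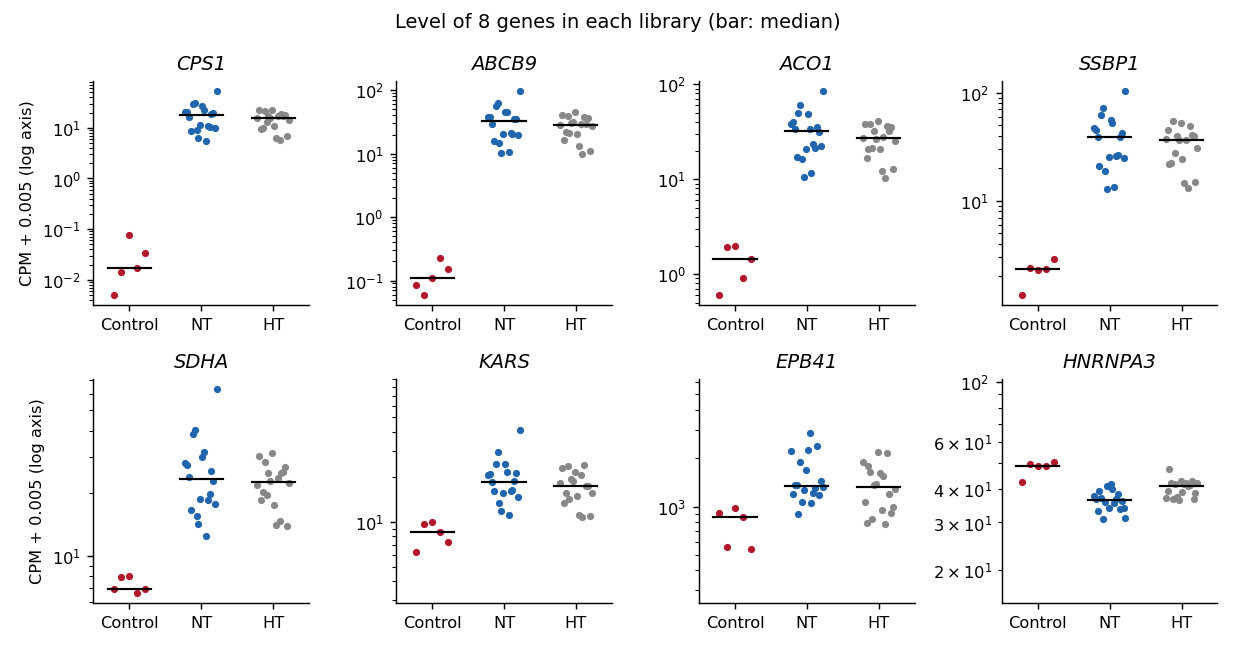
Level of 8 genes in every library, as CPM plus 0.005 on a log axis with a scale of its own for each gene, in Control (n = 5), NT (n = 18) and HT (n = 18) animals, with the median as a bar. CPS1, ABCB9, ACO1, SSBP1, SDHA and KARS have no overlap between Control and NT, EPB41 overlaps, and HNRNPA3 is higher in Control.

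Most of the lower genes also varied together between animals that were not part of the comparison. In the 18 HT libraries, which do not enter the comparison, each gene was correlated with the mean log2 level (CPM plus 0.05) of the 110 genes that were more than 8-fold lower in Control, the gene itself left out. Across these 18 libraries Pearson's r had a median of 0.94 over the 217 lower genes and of -0.02 over the 11142 genes that were not called. It was above 0.8 for 174 of the 217 lower genes, for 5 of those not called and for none of the 10 higher genes. The 174 were 97 of the 110 genes that define the mean and 77 of the 107 other lower genes. The 110 genes had a median r of 0.90 with each other (quartiles 0.79 and 0.95). These values describe libraries that share depth, scaling and RNA composition, and genes in them are not independent. The 174 genes are called co-varying below. Of these, 11 had an r of 0.80 to 0.85, and 7 of the other lower genes lay between 0.75 and 0.80. Of the 174 genes 5 averaged under 1 CPM, and of the 43 other lower genes 18 did.

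**Figure D3:**
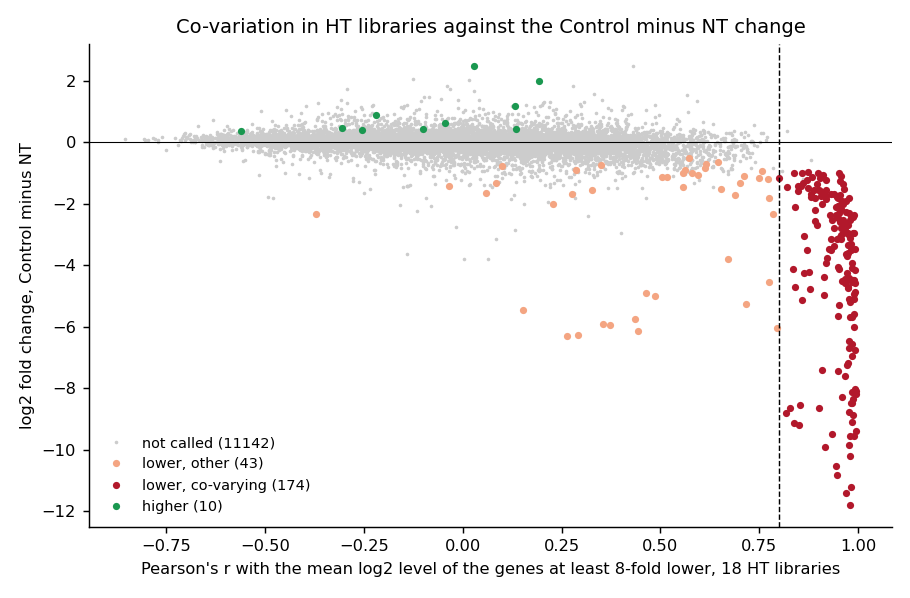
Log2 fold change, Control minus NT, against Pearson's r of each gene with the mean log2 level of the more than 8-fold lower genes across the 18 HT libraries. Of the genes to the right of the dashed line at 0.8, 174 were lower in Control and 5 were not called.

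Summed over the 174 genes, the level was 337, 345, 345, 330 and 322 CPM in Control animals 1 to 5, against 828 to 5318 CPM (median 2009) in NT animals and 859 to 2508 CPM (median 1804) in HT animals. As a share of the counts outside haemoglobin it was 0.313 to 0.458% in Control, 0.849 to 4.65% in NT and 0.872 to 2.22% in HT libraries. In scaled CPM the sum was nearly constant in Control (336 ± 9.70 CPM, SD, n = 5) and spread widely in NT (2059 ± 1102 CPM, SD, n = 18). The share varied more within Control, and replicate 5 was lowest in CPM (322) but highest in share (0.458%). No test is given because the same contrast chose the genes. By time point the NT median was 2142 CPM (ZT01), 1898 CPM (ZT04), 1246 CPM (ZT07) and 2009 CPM (ZT16), and NT ZT07 replicate 4 held the highest value. Of the 110 genes more than 8-fold lower, 72 to 89 had a count in each Control library, 107 to 110 in each NT library and 106 to 110 in each HT library.

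**Figure D4:**
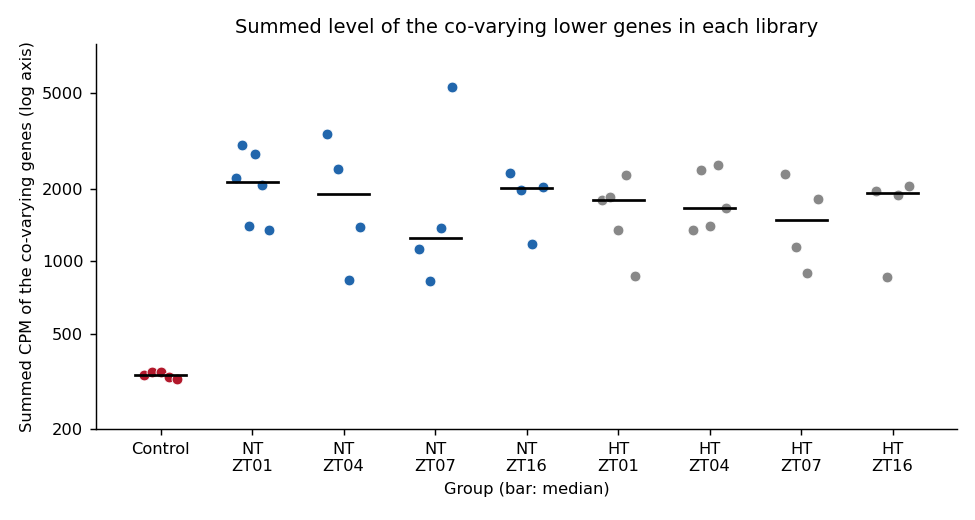
Summed CPM of the 174 co-varying genes in each of the 41 libraries (log axis), by group, with the group median as a bar. The 5 Control libraries lie between 322 and 345 CPM, below the lowest of the NT (828 CPM) and HT (859 CPM) libraries.

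Between HT and NT blood no difference was called in these genes. In a fit of all 41 libraries, none of the 174 co-varying genes was called between HT and NT animals by edgeR, where 15.3% of 11636 tested genes were called, and 9 of the 174 had an unadjusted p under 0.05. Their values HT minus NT were nevertheless negative for 173 of the 174, with a median log2 fold change of -0.31 against -0.01 over all genes. As the 174 vary together, these signs are not separate findings. The same NT libraries also took part in choosing the genes, and they include NT ZT07 replicate 4 with its sum of 5318 CPM. CPS1 had a log2 fold change of -9.21 for Control minus the mean of the HT groups and of -0.32 for HT minus NT (adjusted p = 0.405, edgeR), ACO1 -4.25 and -0.33 (adjusted p = 0.371), and SDHA -1.60 and -0.21 (adjusted p = 0.417). All 174 were lower in Control than in HT, where 4.08% of the tested genes were called lower. Both comparisons share the 5 Control libraries and are not independent. With NT taken 1 time point at a time, CPS1 had log2 fold changes of -9.66 (ZT01), -9.48 (ZT04), -9.65 (ZT07) and -9.37 (ZT16). All 174 genes were called against the NT animals of ZT01, 163 against those of ZT04, 171 against ZT07 and 165 against ZT16 alone, and 174 against NT males and 157 against NT females alone.

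By function, the lower genes included enzymes of amino acid, sugar, lipid and nucleotide metabolism, and 65 of the 217 fell in no group. The grouping was made by hand after the values were seen and carries no test. Only called genes were grouped, so no share of each function can be set beside the 1.91% of all tested genes. The counts therefore do not show that any function was over-represented. Amino acid and one-carbon metabolism had 28 lower genes, all of them co-varying, with a median log2 fold change of -3.56. Besides CPS1, HGD and MAT1A they included ASNS, the asparagine synthetase induced by amino acid shortage, at 0.372, 0.217, 0.140, 0.418 and 0.164 CPM in Control, against 4.20 to 39.6 CPM in NT, and CTH, which releases cysteine from cystathionine, at 0.210 to 0.633 CPM in Control, against 4.14 to 32.8 CPM in NT. Sugar and central carbon metabolism had 26 lower genes, 23 co-varying. Acyl-CoA and lipid metabolism had 23, of which 19 co-varied. Factors for tRNA and translation had 24, of which 22 co-varied and many act in mitochondria. Proteases and protein quality control had 13, DNA and RNA helicases, repair and replication 10, and nucleotide and NAD metabolism 10.

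Whole gene families could be counted by symbol. The families and their split into subfamilies were picked by hand with results of these data known. Their shares therefore describe the called genes and carry no test. Of 39 tested ABC transporters, membrane pumps driven by ATP, 16 were lower in Control, which is 41.03% against 1.91% of all genes. They were all 8 tested members of subfamily B and 8 of 12 of subfamily A, while 0 of 19 in subfamilies C to G were called. ABCB9, a peptide transporter of lysosomes, had 0.0797, 0.0542, 0.105, 0.221 and 0.145 CPM in Control, against 10.1 to 96.2 CPM (median 32.1) in NT, a log2 fold change of -8.09 ± 0.69. ABCB6 and ABCB10, transporters linked to haem synthesis, fell less: ABCB6 by 4.48 on the log2 scale and ABCB10 by 2.31. ABCB10 kept 2.07 to 5.15 CPM in Control, against 7.52 to 43.2 CPM in NT. Of 12 acyl-CoA synthetases 7 were lower, of 11 acyl-CoA dehydrogenases 5, of 15 aldehyde dehydrogenases 5, of 17 mitochondrial aminoacyl-tRNA synthetases 4 and of 18 cytosolic ones 3 (KARS, AARS and VARS). In contrast, 1 of 220 solute carriers was lower, and none of 264 zinc finger genes, 31 kinesins, 40 interleukins with their receptors or 23 integrins was called in either direction.

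Defining markers of liver were at or close to 0. Of 14 hepatocyte markers in the table, 6 had no count in any of the 23 libraries and 1 passed the filter, and their summed level was 0.145 to 0.861 CPM in Control and 0.455 to 2.02 CPM in NT libraries. Heart muscle markers summed to 3.39 to 13.8 CPM in Control and 3.63 to 16.8 CPM in NT, with 0 of 5 called. Markers of endothelium and fibroblasts summed to 18.9 to 29.2 CPM in Control and 19.8 to 39.6 CPM in NT, with 0 of 3 called. A contig took the symbol of its closest human protein, so that the table does not state the organism a transcript came from, and this was not tested.

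Over 46 lists of cell type markers and pathways, 32 had no member called by edgeR, none had a member that edgeR called higher, and the median log2 fold change lay within 0.2 of 0 in 39. By DESeq2 and by voom 1 neutrophil gene was higher, voom also called 1 higher gene each of the eosinophil, basophil and mast cell list and of the glucocorticoid-responsive list, and DESeq2 called 1 platelet gene, 1 chaperone and 2 glycolysis genes lower. The members that were lower belonged in most lists to the co-varying genes. Of 29 genes of fatty acid oxidation 2 were lower (list median -0.13): ETFDH, which passes electrons from acyl-CoA dehydrogenases to ubiquinone, at 0.344 to 0.824 CPM in Control, against 4.07 to 32.0 CPM in NT, and ACADL, the long-chain acyl-CoA dehydrogenase, at 3.31 to 4.01 CPM in Control, against 8.30 to 52.5 CPM in NT. Of 75 respiratory chain genes 2 were lower, SDHA among them (median -0.05). Of 38 proteasome subunits PSMC6, an ATPase of the regulatory particle, was lower (2.72 to 4.07 CPM in Control, against 8.83 to 49.9 CPM in NT; list median -0.02). Of 54 spliceosome genes the helicases EIF4A3 and DHX8 were lower by 1.09 and 0.82 on the log2 scale (median 0.10), and EIF4A3 lost its call without Control replicate 1 or 4. Neither was called without the 3 libraries that stood apart (adjusted p = 0.0592 for EIF4A3 and 0.0581 for DHX8, edgeR). Of 20 genes of iron handling ACO1 and HMOX1 were lower (median -0.10). CRY2, a repressor of the circadian clock, was the 1 of 21 clock genes called, at 1.78, 2.11, 1.85, 1.32 and 1.34 CPM in Control, against 2.22 to 12.9 CPM in NT (log2 fold change -1.45 ± 0.31, list median -0.06). CRY2 was not called without the 3 libraries that stood apart (adjusted p = 0.0502, edgeR) or against the NT animals of ZT04 alone (adjusted p = 0.132), and the list median was -0.15 without Control replicate 5. ASNS was the 1 of 20 genes of the unfolded protein and integrated stress response called, and ALDH1A2, which makes retinoic acid, the 1 of 19 of thyroid hormone and retinoid signalling, at 0 to 0.145 CPM in Control, against 2.11 to 21.005 CPM in NT. Lists of 33 interferon-stimulated genes, 20 Toll-like receptor genes, 20 immediate early genes, 18 glucocorticoid-responsive genes, 28 glycolysis genes and 78 cytosolic ribosomal proteins had 0 called by edgeR, with 2, 0, 1, 2, 5 and 3 members at an unadjusted p under 0.05 and medians of 0.06, -0.00295, 0.03, -0.02, -0.08 and -0.11. Without Control replicate 5 the median of the ribosomal proteins turned to 0.05 (27 of 78 negative, against 62 of 78 with it) and that of the immediate early genes to -0.07. Of these 6 lists DESeq2 called members of glycolysis alone (2 lower), and voom called 1 lower glycolysis gene and 1 higher glucocorticoid-responsive gene.

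**Figure D5:**
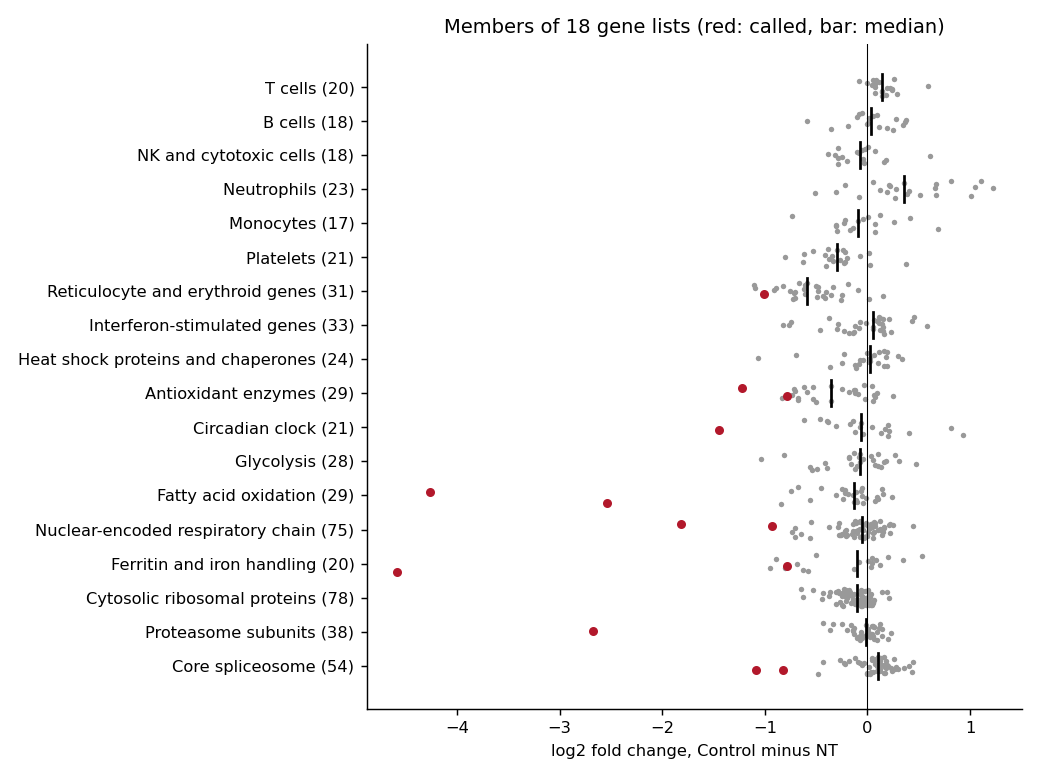
Log2 fold change, Control minus NT, of the tested members of 18 gene lists, with called genes in red, the list median as a bar and the number of members in brackets. The erythroid list has the lowest median of those drawn (-0.58) and neutrophil genes the highest (0.36).

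Few white cell markers passed any test. None of 20 T cell, 18 B cell, 18 NK and cytotoxic cell or 17 monocyte genes was called by edgeR, DESeq2 or voom, with 1 member of each list at an unadjusted p under 0.05 in edgeR and medians of 0.14, 0.04, -0.07 and -0.09. Of the T cell genes 2 of 20 had negative values, and without Control replicate 5 this was 1 of 20 and the median 0.29. Of the monocyte genes 10 of 17 had negative values, and without Control replicate 5 this was 15 of 17 and the median -0.16. Of 23 neutrophil genes 0 were called by edgeR and 1 was higher by DESeq2 and by voom (8 at an unadjusted p under 0.05, median 0.36), and S100A8, a calcium-binding protein of neutrophil granulocytes, had the lowest p (log2 fold change 0.81, adjusted p = 0.0847, edgeR). Without Control replicate 5 the neutrophil median was 0.09. Of 21 platelet genes 0 were called by edgeR and 1 was lower by DESeq2 (2 at an unadjusted p under 0.05), 18 had negative values and the median was -0.29, or -0.15 without Control replicate 5. Of 31 reticulocyte and erythroid genes 29 had negative values, against 46.4% of all genes, but EPB41 was the 1 called (median -0.58). Without Control replicate 5, 28 of 31 were negative, the median was -0.37 and none was called. DESeq2 called 3 of the 31 and voom 2, all lower. The haemoglobin share of the libraries, given above, moved with these genes, and its part in them was not tested.

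EPB41, the red cell membrane protein 4.1, had 915, 558, 975, 867 and 546 CPM in Control, against 903 to 2880 CPM (median 1338) in NT, and its groups overlapped. Its log2 fold change of -1.01 ± 0.25 (adjusted p = 0.0251, edgeR) lost its call without Control replicate 2, 4 or 5. AQP1, the water channel of the red cell membrane, had 17.0, 7.92, 14.4, 12.6 and 3.11 CPM in Control, against 18.2 to 55.3 CPM (median 26.9) in NT, with no overlap (-1.51 ± 0.35), and lost its call without Control replicate 2. TMEM64 had 7.60, 3.83, 5.42, 5.99 and 2.08 CPM in Control, against 6.99 to 53.8 CPM (median 18.4) in NT (-2.01 ± 0.36), where only replicate 1 reached the NT values. PAQR9 had 9.08 to 36.2 CPM in Control and 27.5 to 87.4 CPM in NT (its call was lost without Control replicate 2, 4 or 5), and the linker histone gene HIST1H1D 21.7 to 36.5 CPM in Control and 29.5 to 96.9 CPM in NT. For EPB41, AQP1, TMEM64 and PAQR9 the lowest values in Control were those of replicates 2 and 5, which also had the lowest haemoglobin shares. These libraries also had the largest TMM factors in Control (1.76 and 3.73, against 1.03 to 1.32 in the others). CPM is divided by this factor, and its part in these low values was not tested. HMOX1, which breaks down haem, had 3.36, 3.87, 2.88, 4.32 and 6.03 CPM in Control, against 3.15 to 9.68 CPM (median 6.97) in NT (-0.79 ± 0.20, adjusted p = 0.0385, edgeR), and lost its call without Control replicate 1, 2, 3 or 4, or without NT ZT01 replicate 1, ZT04 replicate 1, ZT07 replicate 1 or 3, or ZT16 replicate 2 or 3. The 43 lower genes outside the co-varying group had a median log2 fold change of -1.51, and 35 of them were also lower in Control than in HT.

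Of 29 antioxidant genes HMOX1 and SOD2 were lower, and the list median was -0.35. SOD2, the superoxide dismutase of mitochondria and 1 of the co-varying genes, had 7.998, 5.20, 7.22, 5.86 and 7.98 CPM in Control, against 7.81 to 31.02 CPM (median 15.5) in NT (-1.22 ± 0.27). It lost its call without Control replicate 2, and was not called against NT ZT07 (adjusted p = 0.0797, edgeR) or ZT16 (0.107) alone. HSPA9, the mitochondrial chaperone mortalin (log2 fold change -0.70, adjusted p = 0.0841, edgeR), and PFKM, the muscle-type phosphofructokinase also found in red cells (-1.04, adjusted p = 0.0644), were closest to a call in their lists of 24 heat shock and 28 glycolysis genes. Both were called by DESeq2, with adjusted p = 0.0183 and 0.00703.

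The 10 higher genes changed less than most of the lower ones. HNRNPA3, an RNA-binding protein of messenger RNA packaging, had 42.6, 49.6, 48.7, 48.7 and 50.3 CPM in Control, against 30.8 to 41.8 CPM (median 36.4) in NT and 36.5 to 47.3 CPM in HT. No Control animal overlapped an NT animal, and the log2 fold change was 0.40 ± 0.09 (adjusted p = 0.0116, edgeR). The RNA-binding proteins TAF15 (0.42) and HNRNPUL2 (0.42), the CCAAT-box factor subunit NFYB (0.46) and the chromatin remodelling subunit RSF1 (0.36) were higher by similar amounts with overlapping groups. Without Control replicate 4 or 5 none of TAF15, HNRNPUL2 and NFYB was called, and RSF1 was called in 3 of the 23 fits that left out 1 library. ARRDC4, an arrestin-domain protein and glucose-responsive gene, had 14.2, 22.02, 13.5, 13.4 and 13.99 CPM in Control, against 6.36 to 13.1 CPM (median 9.52) in NT (0.64 ± 0.14), with no overlap. In HT animals ARRDC4 ran from 8.52 to 25.3 CPM (median 14.9), higher than in NT by 0.61 on the log2 scale (adjusted p = 6.79e-05) and 0.03 from Control. It lost its call without Control replicate 2, the highest Control value.

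Of the rest, PGLYRP1, a peptidoglycan-binding protein of neutrophil granules, had 3.12, 2.17, 3.18, 1.62 and 5.14 CPM in Control, against 0.374 to 4.01 CPM (median 1.30) in NT (1.17 ± 0.28), and lost its call without Control replicate 1, 3 or 5. RETNLB, a resistin-like protein, had 1.65, 1.06, 2.45, 2.24 and 6.66 CPM in Control, against 0.232 to 1.68 CPM (median 0.746) in NT (2.00 ± 0.32, and 1.33 without the 3 libraries that stood apart). POTEI, of the POTE ankyrin and actin-like family described in primates, had 1.25, 7.68, 8.89, 16.6 and 1.15 CPM in Control, against 0.479 to 10.9 CPM (median 0.869) in NT (2.47 ± 0.49), where Control replicates 1, 2, 3 and 5 lay within the NT values, and lost its call without Control replicate 4. PIGL, an enzyme of GPI anchor synthesis, had 0.717 to 1.46 CPM in Control, against 0.190 to 1.01 CPM in NT (0.89 ± 0.23), and was called in 11 of the 23. Only HNRNPA3 and RETNLB of the 10 were called in all 23. HNRNPA3 was not called against any NT time point taken alone (adjusted p = 0.101 to 0.215, edgeR). RETNLB was not called against NT ZT01 (adjusted p = 0.306, edgeR) or ZT16 (0.0736) alone, but was against ZT04 and ZT07. The number of higher genes was 5 without Control replicate 5 and 17 without NT ZT04 replicate 4. Of the 10, 5 were also higher in Control than in HT, where 3.37% of tested genes were called higher.

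On all 11369 genes the median correlation between libraries (log2 CPM plus 0.05) was 0.930 between Control and NT animals, 0.969 among Control and 0.948 among NT animals. The first principal component placed the Control animals at 41.8 to 51.9 and the NT animals at -49.6 to 9.63, with NT ZT01 replicate 4 and NT ZT04 replicate 2 farthest from Control. The same contrast chose the co-varying genes, so leaving them out was bound to lessen this separation and is no separate test. On the 11195 genes left without them, the first component did not separate the groups. There the median correlation was 0.956 between Control and NT animals, 0.968 among Control and 0.949 among NT animals. On these genes the first component overlapped, at 5.48 to 22.4 in Control and -72.3 to 15.1 in NT animals. Its far end was held by NT ZT01 replicate 4 (-72.3) and NT ZT04 replicate 2 (-55.9). An overlap on it therefore does not show that the groups were alike, and 19 of these genes were still called by edgeR.

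Genes of the Y chromosome bear on the sex that the Control labels lack. UTY had 2, 36, 0, 0 and 10 counts in Control animals 1 to 5, against 15 to 71 counts in the 13 NT animals labelled male and 0 to 2 in the 5 labelled female. In these raw counts Control replicate 2 lay in the male range and replicates 1, 3 and 4 in the female range, with replicate 5 between them. Raw counts leave out the TMM factor, which was largest in Control replicate 5 (3.73), so its place between the sexes is uncertain. DDX3Y was lower in Control by 2.57 on the log2 scale (adjusted p = 0.00712, edgeR), at 7, 125, 10, 4 and 192 counts, but did not separate the labelled sexes in NT, with 62 to 359 counts in males and 50 to 393 in females, and co-varied with the enzymes (r = 0.89). The 174 genes were called against NT males and largely against NT females alone, as given above. HBG2, a fetal globin symbol with 4 to 17 counts in each Control library, was the 1 of 6 tested haemoglobin genes called (list median -0.88, all 6 negative; HBG2 log2 fold change -2.34 ± 0.59), and lost its call without Control replicate 1, 3, 4 or 5.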

How the data were processed

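RNA of frozen blood pellets was sequenced in 41 libraries, 1 animal each. Per the study's methods the authors built contigs de novo out of the trimmed reads of all samples, gave each contig the symbol of its best human protein match, and then aligned and counted the reads, without an annotated genome. The deposited table holds raw counts for 20220 human gene symbols. A symbol can pool contigs of related genes, so members of gene families are uncertain, and whether counting used strand is not given in the sources used here.

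Genes were tested with edgeR 4.0.16 (R 4.3.3; TMM scaling, quasi-likelihood F test, low counts filtered at a minimum of 10 per library and 15 in total) on the 23 Control and NT libraries in 5 groups, as Control minus the mean of the 4 NT groups, with Benjamini-Hochberg adjustment over 11369 genes. No covariate was used, and the SE of a fold change is its size over the square root of F. HT values came from a second fit of all 41 libraries. Library measures were compared by 2-sided exact permutation tests. No 2 of the 23 libraries agreed within sampling noise. The procedure was tested on simulated data.

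The gene lists and members were chosen with earlier results of these data known. Genes were named by rule: the 15 largest changes in each direction without overlap at a mean of at least 2 CPM, called or lowest-p list members, genes at 0 in Control with at least 1 CPM in every NT library, and haemoglobin and Y-linked genes. HAO1, ABCB6, ABCB9, ABCB10, ATP7B, CTH, SSBP1, AFG3L2, KARS, AARS, VARS, AQP1, TMEM64, PAQR9, HIST1H1D and the higher genes other than HNRNPA3 and ARRDC4 were chosen after their values were seen. Alternatives were RLE scaling, no filter, DESeq2 1.42.0, limma 3.58.1 (voom), haemoglobin left out, all 41 libraries, NT as 1 group, single time points or sexes, each library left out, the replicate block, a minimum fold of 1.25 and the study's thresholds. Some called genes are not reported here. Leaving out 3 libraries and leaving out the co-varying genes were added after seeing the data.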

Additional observations from a re-analysis of the deposited data

Results flagged for a closer look

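Dixon's criterion compared the highest or lowest value with the others in each Control and NT group of 4 to 10 animals. It was applied to the named genes and to library measures, and HT groups were left out. By chance it picks out about 1 in 20 groups, and 42 of 261 groups had such a value. Of these, 29 lay in NT ZT07 replicate 4, the animal with the highest sum of the 174 co-varying genes (5318 CPM). Its levels in CPM stood above the other NT ZT07 animals for AARS 22.5, ABCB10 43.2, ABCB6 89.0, ABCB9 96.2, ACADL 52.5, ACO1 84.4, AFG3L2 161, AQP1 55.2 and ASNS 39.6. The same held for ATP7B 67.2, CPS1 52.7, CRY2 12.9, CTH 32.8, DDX3Y 7.36, DHDH 10.9, EIF4A3 37.3, ETFDH 32.0, HAO1 86.6 and HGD 31.8, and for HSPA9 33.02, HTRA1 15.4, KARS 41.3, MAT1A 21.3, PCK1 8.76, PFKM 9.83, SDHA 63.3, SOD2 31.02 and SSBP1 103. As these genes vary together, the values are not separate findings.

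In Control, replicate 5 had the lowest haemoglobin share (73.7% of counts) and the highest RETNLB (6.66 CPM). Control replicate 2 had the highest ARRDC4 (22.02 CPM), replicate 3 the only HGD counts (0.0699 CPM) and replicate 1 the lowest HNRNPA3 (42.6 CPM). In NT ZT01, replicate 4 had the highest haemoglobin share (93.04%), the fewest counts outside haemoglobin (3702931), the fewest symbols detected (11363) and the highest HBG2 (1.47 CPM). HBG2 was also highest in NT ZT04 replicate 2 (1.77 CPM). NT ZT16 replicate 2 was highest for S100A8 (5.80 CPM), NT ZT16 replicate 3 lowest for PAQR9 (32.8 CPM), and NT ZT07 replicate 2 lowest for TMEM64 (11.3 CPM).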

How the results depend on the processing

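The number of lower genes stayed between 189 and 281 under all alternatives but the added ones and the study's thresholds (unadjusted p and a fold of 1.25), which called 910 genes, 239 higher and 671 lower. All 174 co-varying genes were still lower with RLE scaling, no filter, DESeq2, voom, haemoglobin left out, all 41 libraries or NT as 1 group. The few higher genes depended on the method: DESeq2 called 27 and voom 47, while NT as 1 group gave 5, NT ZT01 alone 4, NT ZT16 alone 5 and the minimum fold 2. These were in part other genes. Of the 10 higher genes, DESeq2 and voom each kept 10, NT as 1 group 4 and the minimum fold 2. Against single time points 1 (ZT01), 5 (ZT04), 4 (ZT07) and 0 (ZT16) of the 10 were called, and 7 against NT males and 0 against NT females alone. With the co-varying genes left out, which the same contrast had chosen, 19 genes were called, 2 higher and 17 lower. Leaving out 1 library gave 207 to 242 genes, 5 to 17 higher (5 higher without Control replicate 5, 17 without NT ZT04 replicate 4) and 199 to 229 lower, and 170 of the 174 co-varying genes, 20 of the 43 other lower genes and 2 of the 10 higher genes were called in all 23 of these fits. The difference in counts outside haemoglobin was 1625383 to 3689835 and in symbols detected 226.7 to 455.2 when 1 Control animal was left out. The causes were not tested.

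Same-numbered animals shared only a number (17 pairs, r of -0.17 to 0.14, 3 correlating best with their own number). The replicate block gave 219 calls, 7 higher and 212 lower, with all 174 co-varying, 33 of the 43 other lower and 3 of the 10 higher genes among them. Of the named genes and settings, 1698 of 1931 values kept their side of the threshold, 211 lost it, 22 gained it and 0 reversed.

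The 5 Control animals without stated sex, time of day or photoperiod limit every comparison. Genes near 0 in Control rest on few counts, so their fold changes depend on the prior count.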
